A study of Mus musculus with 20 samples.

Results

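The DNA replication licensing genes Orc1, Cdc6, Cdt1, Gmnn, Mcm2, Mcm3, Mcm4, Mcm5, Mcm6 and Mcm7 were followed through the first 35 days after birth in the mouse testis. Their probe sets were taken by gene symbol, whatever their values. This gave 26 of the 45101 probe sets on the array, for 10 of the 18193 genes that have a probe set with a single symbol. The probe set brightest on average (log2 scale) represented its gene. The other tested ones enter the counts, and some of them are also described singly.

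The study measured total RNA of postpartum murine testis on 20 single-channel 3′ expression arrays, with 2 arrays per day. They were taken on days 0, 3, 6, 8 and 10, then on days 14, 18 and 20, and last on days 30 and 35. Age is the only difference the labels give between groups. They name no strain, genotype or treatment, and nothing in them says that the 2 arrays of a day came from separate animals, so p-values measure the spread between these arrays, which may be technical. The labels of 1 array disagree: its title says day 18 replicate 2, which was followed here, and another field says day 0. No main comparison includes day 18, so leaving this array out could reach their calls only through the estimate of spread. No call of a representative changed there. In the step from day 14 to day 18 its absence moved the log2 difference of Cdt1 from -0.93 to -1, which is 2-fold. Mcm7 moved there from -0.18 to -0.19. From day 18 to day 20, Gmnn moved from 0.3 to 0.32 and Mcm4 from -0.41 to -0.4. The summed level of 8 spermatocyte markers was 13030.5 and 13540.9 on the arrays titled day 18, against 561 and 574 on those titled day 0.

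Licensing is the step by which a cell marks its replication origins before S phase. The origin recognition complex, of which Orc1 is a subunit, binds the DNA and, with the loaders Cdc6 and Cdt1, places the ring of Mcm2 to Mcm7 around it as an inactive helicase. Geminin, the product of Gmnn, binds Cdt1 from S phase on and blocks further loading until the cell has divided. In the testis the dividing somatic cells and spermatogonia replicate their DNA, spermatocytes do so before meiosis, and spermatids do not.

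The 2% trimmed mean was 125 on all 20 arrays. Array medians ran from 29.4 to 43.4. The 20th percentile of an array lay between 5.12 and 6.65 on days 0 to 14 and between 9.41 and 12.88 on days 18 to 35, so low readings after day 14 carry a step that cannot be told apart from age. Probe sets were tested where 2 or more arrays put them above their own 40th percentile, which held for 37293 probe sets and for 25 of the 26 of the licensing genes. Below, a gene rose or fell where limma gave a Benjamini-Hochberg adjusted p under 0.05 over the 37293 probe sets, and was called where the difference was also at least 2-fold. Differences are on the log2(intensity + 7.84) scale and carry their standard error (SE), and day means carry the SD of 2 arrays. Levels of different probe sets are not compared, because probes differ in their response. In whole testis, fewer cells of a type and less RNA per cell cannot be told apart.

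Promoter windows from 250 bases before to 50 bases after the start of the gene were held for 8 of the 10 genes, all but Gmnn and Mcm4, in RefSeq GRCm38.p6. They were searched on both strands for 4 spellings of the letters bound by E2F factors, which drive S phase genes: TTTGGCGC, TTTCCCGC, TTTGCCGC and TTTCGCGC. At least 1 match was present in 7 of the 8 genes, Mcm2 being the exception, and in 2.26% of all 32851 windows of the same length. The letters CCAAT, on either strand, were present in 6 of the 8 genes and in 37.4% of all windows. These counts are by gene, over any of its windows, and the shares of all are by window, so they are not fully alike. The 8 genes had 9 windows, because Mcm7 had 2 start sites, and the second Mcm7 window held no E2F match. The stretches below hold E2F matches in capitals, and that of Mcm2, just before its start, is shown because it has none. A match is a description of the letters, and binding was not measured.
Orc1 promoter, GRCm38.p6 chr4:108579416-108579445, plus strand: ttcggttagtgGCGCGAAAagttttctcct
Cdc6 promoter, GRCm38.p6 chr11:98908002-98908031, plus strand: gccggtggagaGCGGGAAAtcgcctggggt
Cdt1 promoter, GRCm38.p6 chr8:122568036-122568064, plus strand: ggaactaccttTTTGGCGCcatggcgcaa
Mcm2 promoter, GRCm38.p6 chr6:88898781-88898900, minus strand: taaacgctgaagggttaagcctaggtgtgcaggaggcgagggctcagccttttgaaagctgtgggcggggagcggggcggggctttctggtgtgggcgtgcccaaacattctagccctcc
Mcm3 promoter, GRCm38.p6 chr1:20820275-20820304, minus strand: aaacttccgtgGCGGGAAAacttgggaagt
Mcm5 promoter, GRCm38.p6 chr8:75109306-75109417, plus strand: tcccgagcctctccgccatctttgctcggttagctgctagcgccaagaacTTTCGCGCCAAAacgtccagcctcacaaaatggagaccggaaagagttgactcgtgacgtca
Mcm6 promoter, GRCm38.p6 chr1:128359706-128359865, minus strand: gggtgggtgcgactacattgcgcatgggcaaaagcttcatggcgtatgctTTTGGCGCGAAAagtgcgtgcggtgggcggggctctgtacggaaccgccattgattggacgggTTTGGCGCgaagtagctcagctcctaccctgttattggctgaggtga
Mcm7 promoter, GRCm38.p6 chr5:138172030-138172059, minus strand: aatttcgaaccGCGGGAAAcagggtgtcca
In the Mcm5 and Mcm6 stretches the capital runs hold a match on each strand, and these overlap. The Mcm6 stretch has a further match nearer to the start, at base -47. The Mcm3 and Cdt1 stretches lie after the start, at bases 9 to 38 and 22 to 50. Mcm3 and Mcm7 each have a further match outside the stretches shown, at bases 39 and 17 after the start. Mcm2 lacked these letters in its window, and its course is described with the other helicase genes below.

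Orc1, the largest subunit of the origin recognition complex, rose in the days after birth and fell between days 14 and 18. Its arrays (probe set 1422663_at) read 74.8 and 81.0 on day 0, 101 and 81.8 on day 3, 139.9 and 171 on day 6, 169 and 186 on day 8 and 213 and 215 on day 10. Later readings were 148 and 139.6 on day 14, 71.7 and 81.1 on day 18, 56.1 and 63.3 on day 20, 72.0 and 68.8 on day 30 and 38.3 and 53.3 on day 35. Both arrays of days 6 to 14 lay above every array of the other days. The day mean was highest on day 10, 214 ± 0.776 (SD, n = 2), and lowest on day 35, 45.8 ± 10.6, which is 4.67-fold lower. Day 8 was higher than day 0 by 1.11 ± 0.18 (SE; limma adjusted p = 0.000225) and called. Orc1 was the only licensing probe set called higher in that comparison, 1 of 25, against 2.45% of all probe sets tested. With a pseudocount at the 40th percentile it came just short of 2-fold. Day 14 against day 10 did not pass, at -0.55 ± 0.18 (limma adjusted p = 0.0655). Day 18 lay below day 14 by -0.85 ± 0.18 (limma adjusted p = 0.00116), short of 2-fold. Day 20 against day 14 gave -1.17 ± 0.18 (limma adjusted p = 2.51e-05) and was called lower. Day 35 was below day 0 by less than 2-fold, at -0.69 ± 0.18 (limma adjusted p = 0.00244). In the order of day means, neighbouring days overlapped in 4 of 9 pairs, days 8 and 6 and days 0 and 18 among them. The other Orc1 probe set, 1443172_at, stayed between 59.4 and 107 and was not called over the time course (limma adjusted p = 0.174), so the rise rested on 1 probe set.

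Cdc6, the ATPase that joins the recognition complex to the helicase, was highest on day 3 and low from day 18. It has 1 probe set, 1417019_a_at, which read 162 and 124 on day 0, 197 and 235 on day 3, 199 and 200.02 on day 6, 159 and 169.6 on day 8 and 179 and 165 on day 10. Later readings were 127 and 99.98 on day 14, 59.6 and 62.2 on day 18, 56.9 and 51.5 on day 20, 9.99 and 52.5 on day 30 and 75.2 and 59.8 on day 35. Every array of days 0 to 14 lay above every array of days 18 to 35, and 1 array of day 30 read far below its partner. Day means ran from 216 ± 27.2 (SD, n = 2) on day 3 to 31.2 ± 30.0 on day 30, and 6 of 9 neighbouring pairs in their order overlapped. Over the time course it was called (limma adjusted p = 1.86e-06). Day 20 lay below day 14, at a log2 difference of -0.96 ± 0.34 (limma adjusted p = 0.0242), just short of 2-fold. That result depended on single arrays: without day 14 replicate 1 it was -0.80 (adjusted p = 0.15), without day 20 replicate 1 or 2 the adjusted p was 0.0642 or 0.102, and without day 14 replicate 2, or with a common median, it was called at -1.12 or -1.14. Day 35 lay below day 0 at -0.99 ± 0.34 (limma adjusted p = 0.0139). Without day 0 replicate 1 this was -0.81 (adjusted p = 0.107) and without day 35 replicate 2 it was -0.85 (adjusted p = 0.087), while without day 0 replicate 2 or day 35 replicate 1 it was called at -1.18 or -1.14, and with a common median at -1.11. The call of day 35 above day 30, at 1.19 ± 0.34 (limma adjusted p = 0.0421), came with 0.636% of all probe sets called higher. It was 0.31 ± 0.21 (adjusted p = 0.392) without day 30 replicate 1, the array at 9.99, and its adjusted p was 0.172 or 0.0622 without day 35 replicate 1 or 2.

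Cdt1, the loading factor that geminin inhibits, stayed between 632 and 855 from birth to day 10 and was lower on day 14 than on day 8, on day 20 than on day 14 and on day 35 than on day 20. Probe set 1424143_a_at read 651 and 632 on day 0, 689 and 713 on day 3, 824 and 855 on day 6, 705 and 717 on day 8 and 682 and 736 on day 10. Later readings were 367 and 344 on day 14, 173 and 194 on day 18, 114 and 127 on day 20, 77.6 and 68.0 on day 30 and 64.5 and 60.3 on day 35. From day 14 on, each day lay below all earlier days with no overlap. The mean fell from 839.6 ± 22.3 (SD, n = 2) on day 6 to 62.4 ± 3.01 on day 35, 13.5-fold. Only 2 of 9 neighbouring pairs overlapped, days 8 and 10 and days 10 and 3. Day 14 lay below day 8 by -0.98 ± 0.11 (limma adjusted p = 8.4e-07), short of 2-fold, and was called at -1.03 without day 14 replicate 1 and at -1.07 and -1.03 under quantile normalization and a common median. Day 20 lay below day 14 by -1.50 ± 0.11 (limma adjusted p = 6.62e-10) and was called. The further fall to day 35 was -0.87 ± 0.11 (limma adjusted p = 1.81e-06). Against day 0, day 35 differed by -3.21 ± 0.11 (limma adjusted p = 7.93e-16). Probe set 1424144_at gave -2.71 ± 0.19 for the same days, and 1455791_at stayed between 0.297 and 10.6 on all arrays and was not tested.

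Gmnn, which encodes the Cdt1 inhibitor geminin, had its highest level on day 20. Its 1 probe set, 1417506_at, read 812 and 734 on day 0, 865 and 753 on day 3, 838 and 854 on day 6, 892 and 854 on day 8 and 783 and 751 on day 10. Later readings were 699 and 699 on day 14, 895 and 929 on day 18, 1127 and 1120.2 on day 20, 485 and 456 on day 30 and 539 and 594 on day 35. Both arrays of day 20 lay above all others, and both arrays of days 30 and 35 lay below all others. The day mean was 699 ± 0.677 (SD, n = 2) on day 14, 1124 ± 4.75 on day 20 and 471 ± 20.7 on day 30. Day 18 exceeded day 14 by 0.38 ± 0.08 (limma adjusted p = 0.00163), and day 20 exceeded day 14 by 0.68 ± 0.08 (limma adjusted p = 1.67e-06), both short of 2-fold. Day 30 was called lower than day 20, at -1.24 ± 0.08 (limma adjusted p = 8.42e-10), where 6.34% of all probe sets were called lower. Day 35 lay below day 20 by -0.98 ± 0.08 (limma adjusted p = 1.81e-08), and was called at -1.05 without day 35 replicate 2. It lay below day 0 by -0.44 ± 0.08 (limma adjusted p = 0.000119). The small fall from day 8 to day 14, -0.32 ± 0.08 (limma adjusted p = 0.0117), did not pass without either array of day 14 or without day 8 replicate 1 (adjusted p between 0.0558 and 0.101). Days 6, 3, 0 and 10 overlapped in order.

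**Figure D1:**
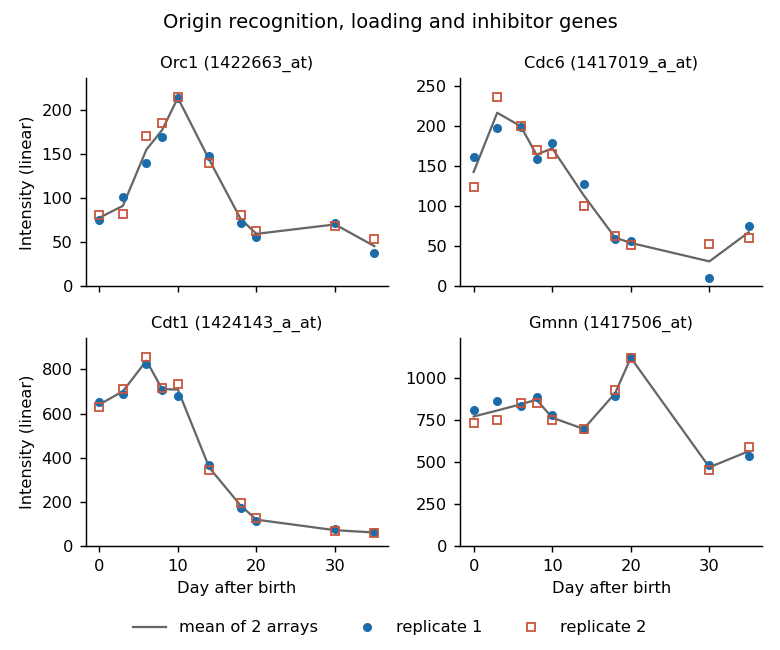
Intensity (linear axis from 0) of Orc1, Cdc6, Cdt1 and Gmnn against day after birth, with filled circles for replicate 1, open squares for replicate 2 and a line through the mean of the 2 arrays. Orc1 peaks on day 10 at 214, Cdt1 declines from 839.6 on day 6 to 62.4 on day 35, and Gmnn peaks on day 20 at 1124.

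The 6 helicase genes were high from birth to day 10. Mcm3, Mcm4, Mcm5 and Mcm6 then fell at least 2-fold between days 14 and 20. Mcm2, by its representative probe set, was called lower for day 35 against day 20 and not for day 20 against day 14. Mcm7 fell by less than 2-fold from birth to day 35 on the deposited scale.

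Mcm4 (1416214_at) read 726 and 655 on day 0, 966 and 907 on day 3, 860.3 and 863 on day 6, 734 and 684 on day 8 and 752 and 589 on day 10. Later readings were 471 and 514 on day 14, 227 and 231 on day 18, 160.0 and 182 on day 20, 118 and 120.1 on day 30 and 89.8 and 105 on day 35. Arrays of day 14 lay below all arrays of days 0 to 10, and each later day lay below the one before it. The mean was highest on day 3, 936 ± 41.6 (SD, n = 2), and lowest on day 35, 97.5 ± 10.9, a 9.60-fold range in which only 2 of 9 neighbouring pairs overlapped. Day 14 lay below day 8 by -0.52 ± 0.12 (limma adjusted p = 0.00331). With all arrays, Mcm4 was the only member whose representative was called lower on day 18 against day 14, at -1.08 ± 0.12 (limma adjusted p = 6.5e-07). In that step 5.15% of all probe sets were called lower. Cdt1 was at -0.93 ± 0.11 there (limma adjusted p = 1.28e-06), short of 2-fold. It reached 2-fold, at -1, without day 18 replicate 2, the array whose labels disagree. For Mcm4, day 20 against day 14 gave -1.49 ± 0.12, and day 35 against day 0 gave -2.73 ± 0.12 (limma adjusted p = 3.17e-09 and 4.22e-14).

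Mcm5 (1436808_x_at) read 1342 and 1171 on day 0, 1262 and 1280.1 on day 3, 1301 and 1339 on day 6, 1152 and 1169 on day 8 and 1465 and 1297 on day 10. Later readings were 1046 and 1091 on day 14, 605 and 623 on day 18, 400.1 and 402 on day 20, 175 and 215 on day 30 and 220.1 and 205 on day 35. Replicate 1 of day 10 was the highest array, and every array of days 0 to 14 lay above every array of days 18 to 35. Its mean was highest on day 10, 1381 ± 119 (SD, n = 2). Day 14 against day 8 did not pass, at -0.12 ± 0.10 (limma adjusted p = 0.494). It was called on day 20 against day 14, at -1.40 ± 0.10 (limma adjusted p = 4.49e-10), and on day 35 against day 0, at -2.52 ± 0.10 (limma adjusted p = 6.33e-15).

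Mcm6 (1416251_at) read 1524 and 1322 on day 0, 1533 and 1758 on day 3, 1485 and 1686 on day 6, 1355 and 1526 on day 8 and 1252 and 1223 on day 10. Later readings were 853 and 841 on day 14, 502 and 482 on day 18, 404 and 417 on day 20, 176 and 244 on day 30 and 268 and 203 on day 35. Days 10, 14, 18 and 20 each lay below the day before without overlap, and days 30 and 35 overlapped. The fall was under way by day 14, at -0.76 ± 0.13 against day 8 (limma adjusted p = 0.000317). The step from day 14 to day 20 was -1.03 ± 0.13 (limma adjusted p = 2.51e-06). Day 35 against day 0 gave -2.56 ± 0.13 (limma adjusted p = 8.18e-13).

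Mcm3 (1420028_s_at) read 678 and 581 on day 0, 755 and 791 on day 3, 795 and 872 on day 6, 691 and 687 on day 8 and 708 and 697 on day 10. Later readings were 560.1 and 546 on day 14, 330.0 and 273 on day 18, 226 and 199 on day 20, 81.2 and 146 on day 30 and 142 and 134 on day 35. Arrays of days 0 to 14 did not overlap those of days 18 to 35, and the 2 arrays of day 30 lay on either side of those of day 35. Day 14 was not distinguishable from day 8, at -0.31 ± 0.17 (limma adjusted p = 0.244). Without either array of day 30, a day that takes no part in that comparison but enters the estimate of spread, the adjusted p was 0.0417 or 0.0428. Day 20 against day 14 gave -1.35 ± 0.17 and day 35 against day 0 gave -2.12 ± 0.17 (limma adjusted p = 1.33e-06 and 5.35e-10). The fall from day 20 to day 35, -0.59 ± 0.17 (limma adjusted p = 0.00836), did not pass without day 20 replicate 1 (adjusted p = 0.0784) or day 35 replicate 2 (adjusted p = 0.0501).

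Mcm2 has 2 probe sets, and they gave different courses after day 14. The representative, 1434079_s_at, read 573 and 478 on day 0, 658 and 572 on day 3, 702 and 793 on day 6, 596 and 711 on day 8 and 603 and 584 on day 10. Later readings were 381 and 374 on day 14, 377 and 366 on day 18, 332 and 346 on day 20, 203 and 107 on day 30 and 142 and 144 on day 35. Its arrays lay within 332 to 381 on days 14 to 20, and day 20 differed from day 14 by -0.15 ± 0.18 (limma adjusted p = 0.51). Its calls came later. Day 30 was called lower than day 20, at -1.16 ± 0.18 (limma adjusted p = 3.47e-05), where 6.34% of all probe sets were called lower. Without day 30 replicate 2 this was -0.72, short of 2-fold. Its other calls were -1.20 ± 0.18 for day 35 against day 20 (limma adjusted p = 2.16e-05; -0.98 under quantile normalization, short of 2-fold) and -1.82 ± 0.18 for day 35 against day 0 (limma adjusted p = 1.91e-08). Its fall from day 8 to day 14, -0.77 ± 0.18 (limma adjusted p = 0.00405), did not pass without day 8 replicate 2 (-0.65, adjusted p = 0.0702). Probe set 1448777_at read 617 and 665 on day 0, 509 and 434 on day 14, 243 and 209 on day 18, 129.8 and 169 on day 20, 90.8 and 68.2 on day 30 and 56.2 and 67.6 on day 35. Here each later day lay below the one before without overlap, day 20 against day 14 was called at -1.61 ± 0.14, and day 35 against day 0 at -3.22 ± 0.14 (limma adjusted p = 1.15e-08 and 4.7e-14). The difference between the probe sets, a comparison chosen after their values were seen, was 1.46 ± 0.19 for day 20 against day 14 and 1.40 ± 0.19 for day 35 against day 0 (limma adjusted p = 1.22e-07 and 7.38e-08). Of all probe sets, 86.2% and 96.4% differed from 1448777_at in those comparisons. By the naming of this array type, a probe set ending in _s_at or _x_at can bind more than 1 transcript, and which transcripts these bind was not examined.

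Mcm7 (1438320_s_at) read 2727 and 2516 on day 0, 2700.4 and 2602 on day 3, 2690.2 and 2829.7 on day 6, 2423 and 2482 on day 8 and 2130.0 and 2196 on day 10. Later readings were 2359 and 2157 on day 14, 1969.6 and 2005 on day 18, 1902 and 1882 on day 20, 1419.8 and 1431 on day 30 and 1425 and 1360.0 on day 35. The decline ran in small steps, and arrays of days 30 and 35 lay below all others. The mean went from 2760 ± 98.7 (SD, n = 2) on day 6 to 1393 ± 46.1 on day 35, a 1.98-fold range, which missed the 2-fold requirement although the time course passed the adjusted p (limma adjusted p = 2.31e-11). It reached 2-fold, at a log2 range of 1.02, without day 6 replicate 1 or without day 35 replicate 1, and at 1.24 and 1.32 under quantile normalization and a common median. Day 35 lay below day 0 by -0.91 ± 0.06 (limma adjusted p = 1.11e-10), and by -1.05 and -1.02 under those scalings. Day 20 lay below day 14 by -0.25 ± 0.06 (limma adjusted p = 0.00299), which did not pass without day 14 replicate 1 (-0.19, adjusted p = 0.0525). The other 3 probe sets of Mcm7 gave -0.55, -0.32 and -0.58 for day 35 against day 0, so the small fall was seen with all 4.

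**Figure D2:**
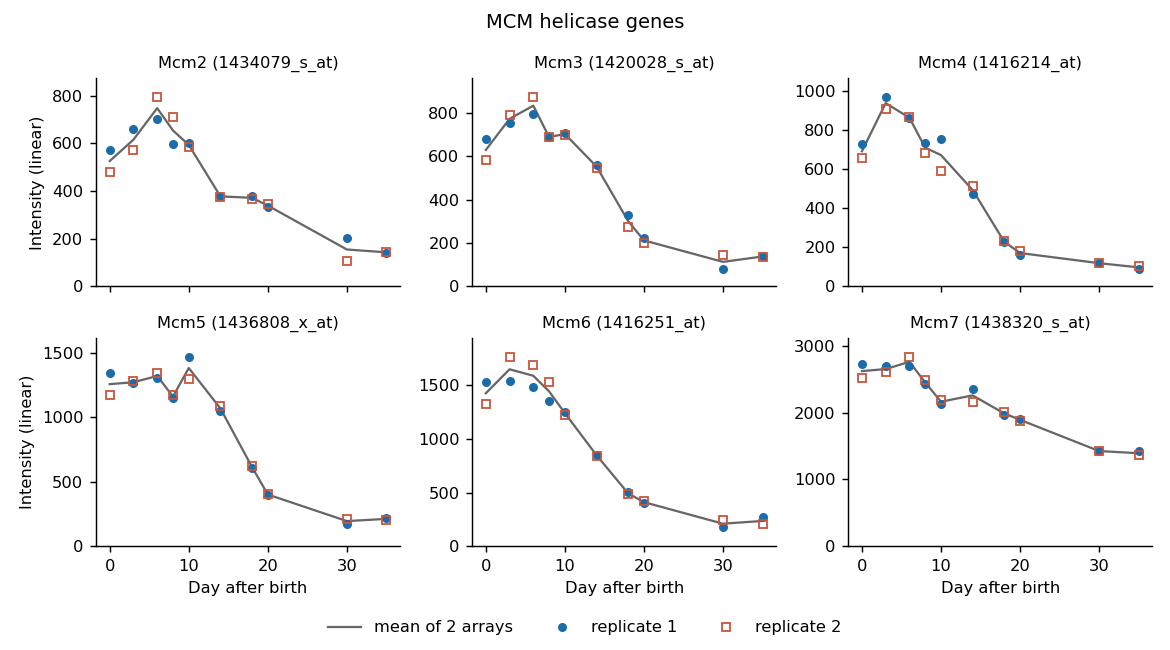
Intensity (linear axes from 0, each gene on its own scale) of the representative probe sets of Mcm2 to Mcm7 against day after birth, with filled circles for replicate 1, open squares for replicate 2 and a line through the mean of the 2 arrays. Mcm5 goes from a mean of 1381 on day 10 to 401 on day 20, Mcm2 stays between 332 and 381 on days 14 to 20, and Mcm7 keeps 53.1% of its day 0 mean on day 35.

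Within the set, the share of the day 0 mean that was left on day 35 differed widely by the representative probe sets. It was 9.74% for Cdt1, 14.1% for Mcm4, 16.6% for Mcm6, 16.9% for Mcm5, 22.0% for Mcm3 and 27.2% for Mcm2. It was 47.3% for Cdc6, 53.1% for Mcm7, 58.8% for Orc1 and 73.3% for Gmnn. The other probe set of Mcm2, 1448777_at, kept 9.66%, and that of Orc1, 1443172_at, kept 95.5%, so the order depends on the probe set. On day 10, Orc1 stood at 275% of day 0 by its representative and at 128% by 1443172_at, while the representatives of the other 9 genes stood between 82.5% and 121%. On day 20, Gmnn stood at 145% of day 0 while the other 9 stood between 18.8% and 76.6%.

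**Figure D3:**
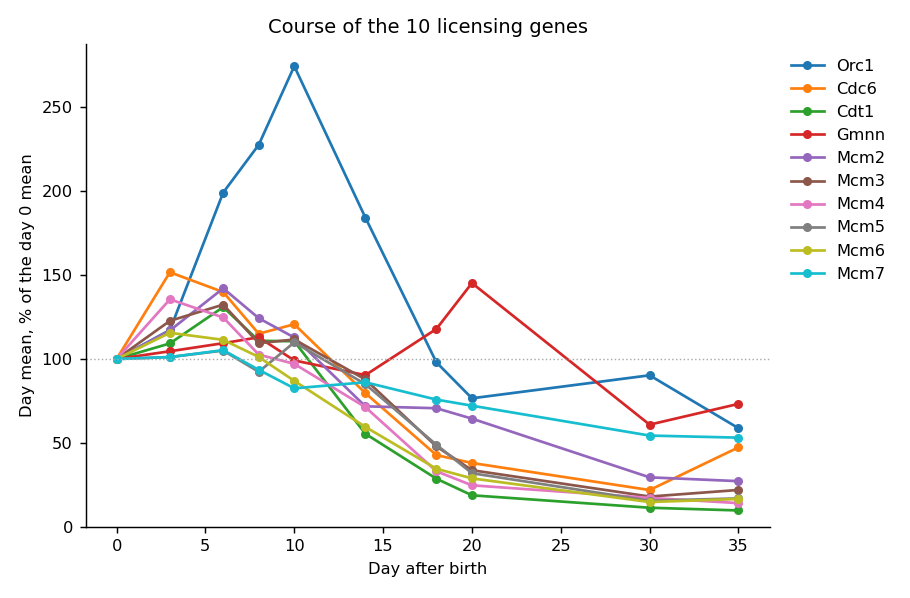
Day mean of each of the 10 representative probe sets as a percentage of its own day 0 mean (linear axis from 0), against day after birth, with 1 line per gene and a dotted line at 100%. Orc1 reaches 275% on day 10 and Gmnn 145% on day 20, while Cdt1 ends at 9.74%.

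Counted over the 25 tested probe sets, the licensing genes changed little up to day 8. By limma's call 1 probe set was higher and 0 were lower on day 8 against day 0, with 2.42% of all tested probe sets called lower. The adjusted p alone also gave 1 higher and 0 lower, against 8.14% and 6.67% of all, and an unadjusted p under 0.05 gave 2 higher and 0 lower. The share of all probe sets at an unadjusted p was not counted, here or below, so those counts only describe the members. The median difference was 0.06 over the 25 and -0.03 over all tested. Each array of day 0 is used again in the comparison with day 35, and days 8, 14 and 20 are likewise shared, so the 5 comparisons are not independent.

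Between days 8 and 14 falls began without reaching 2-fold. By limma's call 0 probe sets were higher, against 3.86% of all, and 0 lower, against 2.10% of all. An unadjusted p under 0.05 gave 0 higher and 11 lower, with no share of all probe sets to set beside it. By the adjusted p alone 8 of 25 fell, against 7.73% of all, while 0 rose, against 8.87% of all. The representatives that fell were those of 5 genes, Cdt1, Gmnn, Mcm2, Mcm4 and Mcm6. Cdc6, at -0.51 ± 0.34 (limma adjusted p = 0.38), passed without either array of day 30 (adjusted p = 0.0443 and 0.0492). The median was -0.31 over the 25 probe sets and -0.02 over all tested.

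Of the intervals from day 0 to 8, 8 to 14, 14 to 20 and 20 to 35, that from day 14 to day 20 held the most licensing calls. 13 of the 25 probe sets were called lower, against 12.0% of all. By their representatives the 6 genes called lower were Orc1, Cdt1, Mcm3, Mcm4, Mcm5 and Mcm6. By the adjusted p alone, 18 of 25 fell, against 26.0% of all. The median was -1.03 over the 25 and -0.03 over all tested. 1 probe set was called higher, against 14.7% of all, and this was 1447756_x_at of Mcm6. It read no more than 48.8 on any array and rose by 1.04 ± 0.37 (limma adjusted p = 0.0269). It was not called without day 14 replicate 1, day 14 replicate 2 or day 20 replicate 1, nor under either other scaling. Gmnn also rose, below 2-fold, so the adjusted p alone gave 2 higher, against 20.6% of all.

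Between days 20 and 35 most members fell again by less than 2-fold. 4 of 25 probe sets were called lower, against 7.28% of all, and 0 were called higher, against 6.71% of all. By the adjusted p alone 15 of 25 fell, in 8 genes, against 24.4% of all, and 0 rose, against 9.33% of all, with 0 higher at an unadjusted limma p under 0.05. The exceptions were Orc1, at -0.34 ± 0.18 (limma adjusted p = 0.162), and Cdc6, at 0.27 ± 0.34 (limma adjusted p = 0.59). Orc1 passed without day 35 replicate 2, at -0.55 (adjusted p = 0.0481). The median was -0.47 over the 25 and -0.17 over all tested.

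From birth to day 35 the set was lower almost throughout. 14 of 25 probe sets were called lower, against 28.1% of all, and 0 called higher, against 22.9% of all, with 1 higher at an unadjusted limma p under 0.05. The adjusted p alone gave 21 lower, against 37.2% of all, and these included the representatives of all 10 genes. It gave 1 higher, again 1447756_x_at of Mcm6 at 0.95 ± 0.37 (limma adjusted p = 0.0306), against 28.1% of all. That probe set reached 2-fold without day 0 replicate 2 or without day 35 replicate 1. The median was -1.82 over the 25 and -0.13 over all tested. Over the whole time course 20 of 25 probe sets and 9 of 10 genes were called, against 73.1% of all, a share near that of the members.

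The probe sets of a gene did not always move together. For day 35 against day 20, 1426653_at of Mcm3 fell further than its representative, at -1.41 ± 0.19 against -0.59 ± 0.17. In the same comparison 1415945_at of Mcm5 fell less than its representative, at -0.35 ± 0.13 against -0.89 ± 0.10. These differences between probe sets were not tested. The low probe sets 1420029_at of Mcm3 (18.2 to 90.4), 1459658_at of Mcm5 (1.20 to 81.1) and 1447756_x_at of Mcm6 (1.29 to 48.8) were highest on day 18 or day 30, unlike every representative of a helicase gene. The 2 of these for Mcm3 and Mcm5 did not pass for day 35 against day 0, with adjusted p = 0.224 and 0.624. The part that the step in low readings after day 14 has in these 3 was not tested.

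**Figure D4:**
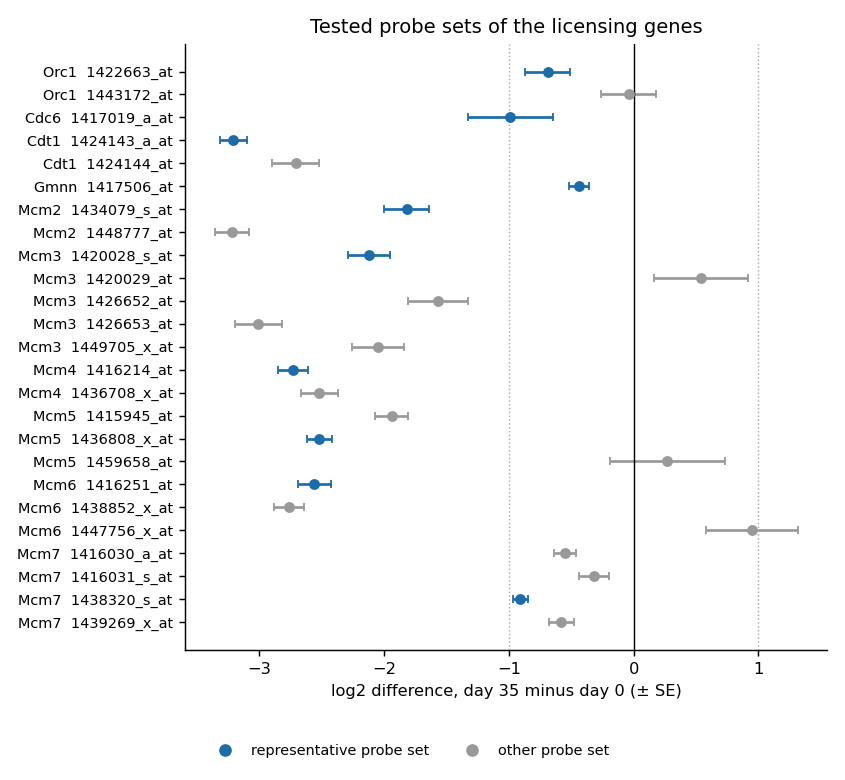
log2 difference of day 35 minus day 0 (horizontal axis, bars are the SE from limma) for the 25 tested probe sets, with representatives in blue, the others in grey, dotted lines at 2-fold and the full line at 0. 1 probe set of Cdt1 and 1 of Mcm2 lie lowest, at -3.21 and -3.22, all 4 of Mcm7 lie between -0.91 and -0.32, and the 3 low probe sets of Mcm3, Mcm5 and Mcm6 lie above 0.

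The loaders and the inhibitor were next set against the helicase genes, by subtracting the mean log2 value of Mcm2 to Mcm7 from each array. The helicase mean was 9.99 on day 0, 10.04 on day 8, 9.61 on day 14, 8.66 on day 20 and 7.88 on day 35. Relative to it, Orc1 gained from day 0 to day 8, Gmnn gained from day 14 to day 20, and Cdt1 lost from day 8 to day 20. These are differences of differences, so a gain can be a smaller fall.

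For day 8 against day 0, Orc1 differed from the helicase mean by 1.06 ± 0.20 (limma adjusted p = 0.000894), and 12.5% of all probe sets passed. Cdc6, Cdt1 and Gmnn lay between 0.10 and 0.15 there and did not pass. For day 14 against day 8, Cdt1 fell more than the helicase, by -0.55 ± 0.13 (limma adjusted p = 0.00244), with 26.2% of all passing. For day 20 against day 14, Gmnn differed by 1.62 ± 0.10 (limma adjusted p = 1.29e-11) and Cdt1 by -0.56 ± 0.13 (limma adjusted p = 0.000827), with 62.1% of all passing. Orc1, at -0.22 ± 0.20 (limma adjusted p = 0.34), and Cdc6, at -0.02 ± 0.31 (limma adjusted p = 0.968), did not pass there, although Orc1 passed at -0.46 (adjusted p = 0.0459) when the mean was taken over all Mcm2 to Mcm7 probe sets.

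For day 35 against day 20, Cdc6 differed from the helicase mean, which fell, by 1.05 ± 0.31 (limma adjusted p = 0.0101), with 43.5% of all passing. This did not pass without day 20 replicate 2 (0.98, adjusted p = 0.0585) or day 35 replicate 1 (0.94, adjusted p = 0.0565). Orc1 differed by 0.44 ± 0.20 (limma adjusted p = 0.0812), and by 0.67 (adjusted p = 0.0211) without day 35 replicate 1. For day 35 against day 0, Gmnn stood at 1.67 ± 0.10 (limma adjusted p = 1.58e-12), Orc1 at 1.42 ± 0.20 (limma adjusted p = 1.13e-06), Cdc6 at 1.12 ± 0.31 (limma adjusted p = 0.00229) and Cdt1 at -1.10 ± 0.13 (limma adjusted p = 7.46e-08). In that comparison 86.6% of all probe sets differed from the helicase mean, so passing is not particular to these genes. The value for Cdc6 was 0.55 (adjusted p = 0.114) when the helicase mean was taken over all Mcm2 to Mcm7 probe sets.

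Mcm7 was compared with the mean of Mcm2 to Mcm6 in the same way, after its course had been seen. For day 8 against day 0 it differed by -0.17 ± 0.09 (limma adjusted p = 0.249), where 12.2% of all passed. It fell less than the other 5 on day 14 against day 8 by 0.38 ± 0.09 (limma adjusted p = 0.0026; 29.9% of all passed), on day 20 against day 14 by 0.83 ± 0.09 (limma adjusted p = 4.71e-08; 67.6% of all) and on day 35 against day 20 by 0.41 ± 0.09 (limma adjusted p = 0.000945; 48.0% of all). The value for day 14 was 0.30 (adjusted p = 0.0564) without day 14 replicate 1, and that for day 35 against day 20 was 0.12 (adjusted p = 0.259) under quantile normalization. Over day 35 against day 0 the difference was 1.44 ± 0.09 (limma adjusted p = 8.93e-13), with 89.6% of all passing.

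**Figure D5:**
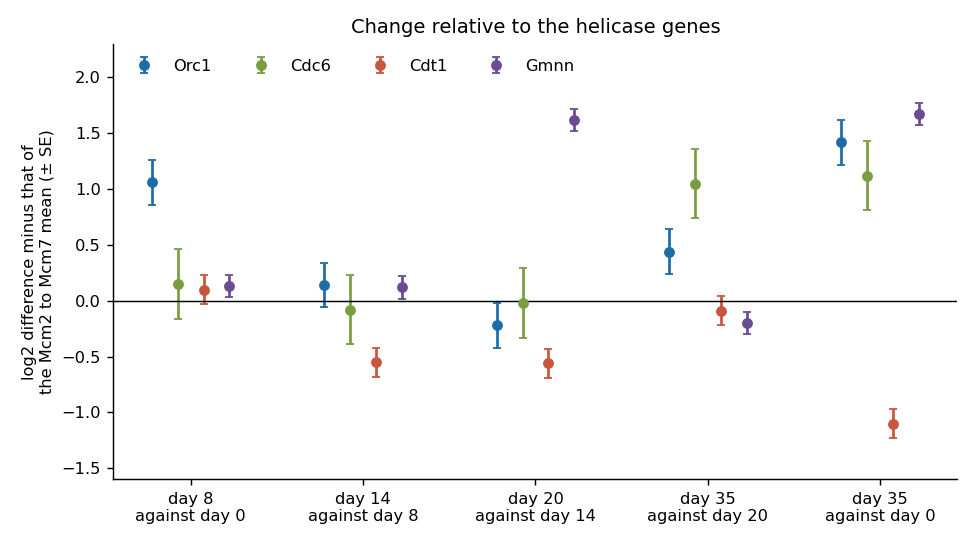
log2 difference of Orc1, Cdc6, Cdt1 and Gmnn minus that of the mean of Mcm2 to Mcm7 (vertical axis, bars are the SE from limma) for the 5 comparisons, with the line at 0 marking an equal change. Gmnn lies at 1.62 and Cdt1 at -0.56 for day 20 against day 14, and they end at 1.67 and -1.10 for day 35 against day 0.

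Genes that work before, with and after licensing were counted by the same call, 1 probe set per gene, and the share of all probe sets called in each comparison is as given above. Of 8 measured origin recognition subunits and MCM relatives, 1 was called higher on day 8 against day 0, 1 lower on day 20 against day 14 and 2 lower on day 35 against day 0. Their median for day 35 against day 0 was -0.48, against -0.13 over all tested. Mcmbp, which binds the MCM ring and helps to unload it, accounted for the first 2 of these calls, at 1.11 ± 0.11 for day 8 and -1.47 ± 0.11 for day 20 (limma adjusted p = 5.34e-07 and 1.36e-09). It was highest on day 10, as Orc1 was, with a day mean of 1004. Orc6 was called lower on day 35 against day 0, at -1.44 ± 0.21 (limma adjusted p = 4.03e-06), and Orc4 fell by less than 2-fold, at -0.72 ± 0.12 (limma adjusted p = 1.98e-05).

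Of 18 genes of origin firing and the active helicase, 2 were called higher on day 8 against day 0 and 2 lower on day 20 against day 14. On day 35 against day 0, 6 were called lower and 1 higher, with a median of -0.52. Wdhd1, which ties the helicase to the polymerase, gave -1.02 ± 0.13 and -1.23 ± 0.13 for the last 2 of these comparisons (limma adjusted p = 2e-06 and 4.85e-08). Timeless, of the fork protection complex, gave -0.41 ± 0.23 (limma adjusted p = 0.161) and -1.40 ± 0.23 (limma adjusted p = 2.44e-05). Ticrr, needed for firing, did not pass in either, at 0.11 ± 0.26 and -0.43 ± 0.26.

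Of 22 genes of the replication fork, 4 were called higher and 3 lower on day 20 against day 14, and 3 higher and 11 lower on day 35 against day 0. Their medians were -0.04 and -0.94. Pola1, the catalytic subunit of the priming polymerase, was called lower in both, at -1.03 ± 0.29 and -3.94 ± 0.29 (limma adjusted p = 0.00709 and 2.65e-10). Rnaseh2a, a subunit of the RNase H2 that removes RNA from DNA, went the other way, at 2.59 ± 0.11 and 2.95 ± 0.11 (limma adjusted p = 7.05e-13 and 3.74e-15). Pold3, a subunit of a replicative and repair polymerase, was called higher on day 35 against day 0, at 2.74 ± 0.16 (limma adjusted p = 8.27e-12). The fork list thus held calls in both directions.

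Of 7 genes that supply nucleotides for S phase, 2 were called lower on day 20 against day 14 and 4 on day 35 against day 0. Tk1, the S phase thymidine kinase, was at -4.73 ± 0.23 for day 35 against day 0, Tyms, which makes thymidylate, at -2.41 ± 0.34, and Dck, the deoxycytidine kinase, at -1.73 ± 0.20 (limma adjusted p = 4.27e-13, 3.63e-06 and 1.5e-07). Of 24 genes that control licensing, 1 was called higher and 3 lower on day 20 against day 14, and 2 higher and 9 lower on day 35 against day 0. Fbxo5, an inhibitor of the ligase that removes geminin, was at -3.26 ± 0.31 for day 35 against day 0, Cul4b, of the ligase family that removes Cdt1, at -2.76 ± 0.10, and Ccna2, the S phase cyclin A2, at -2.27 ± 0.10 (limma adjusted p = 1.4e-08, 5.98e-15 and 1.03e-13).

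Of 15 genes of mitosis and proliferation, 4 were called higher on day 20 against day 14, and 3 higher and 5 lower on day 35 against day 0. Their median on day 20 against day 14 was 0.18, where that of the 10 licensing genes by their representatives was -1.1. The 4, named after their values were seen, were Birc5 at 1.67, Aurka at 1.59, Ccnb2 at 1.31 and Plk1 at 1.13, all of which act in cell division. Mki67, the proliferation marker, was at -0.84 ± 0.12 there and Cenpa, the centromeric histone, at -0.90 ± 0.10 (limma adjusted p = 7.87e-06 and 4.18e-07). Top2a, Bub1, Kif11 and Tpx2 also fell there, at -0.42, -0.63, -0.49 and -0.40, and Nusap1 rose by 0.74, all by less than 2-fold. Gmnn thus had its highest day mean within the interval in which Birc5, Aurka, Ccnb2 and Plk1 were called higher and others of the list fell. The relation between them and Gmnn was not tested.

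The 8 genes whose course over the 10 day means was most like that of the members had Pearson's r between 0.9946 and 0.9976 with the mean of the 10 standardized member courses. They were Etaa1, Zmym3, Stxbp6, Stra6, Iah1, Ppp1ca, Exosc8 and Nipsnap3b. Their highest day means fell on day 3, 6 or 8. Etaa1, for example, had a mean of 231 on day 6 and 42.4 on day 35. These are the highest of many correlations over 10 points that share their arrays, and they are given as a description. Set against the mean of the other 9 members, the members themselves ranged from an r of 0.484 for Gmnn, 0.715 for Orc1 and 0.906 for Cdc6 to 0.989 for Mcm3.

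Markers of the cell types moved through the same days. The summed level of 8 spermatogonium markers was 1302 and 1309 on the arrays of day 0, 4849.6 and 4966 on day 10, 2886 and 2923 on day 14, 2688 and 2711 on day 20 and 2583 and 2696 on day 35. On day 35 the mean of Dmrtb1 alone was 2108, so this sum did not follow the other markers of its list. Each sum adds probe sets that differ in their response and only describes its list across days. That of 8 spermatocyte markers was 396 and 433 on day 3 and 13419.5 and 14307 on day 20. The sum over 8 spermatid markers was between 90.2 and 155 up to day 10, 5150.4 and 5289.5 on day 20 and 49111 and 54712 on day 35. On day 20 only 2 of these 8, Prm1 and Tnp2, were still under the pooled median intensity of 34.55 on both arrays. Prm2 and Tnp1, the other protamine and transition protein genes of the list, were called higher on day 20 against day 14. The sum over 8 Sertoli cell markers was 12221 and 12516 on day 10 and 5008 and 5349.9 on day 35, with Amh under the pooled median from day 18. On day 10 the mean of Clu alone was 7824, so this sum mostly followed 1 marker. Between days 14 and 20, when most licensing genes fell, 6 of 8 spermatid markers were called higher and 4 of 8 Sertoli cell markers lower. Of 8 spermatocyte markers 3 were called higher and 1 lower, and of 8 spermatogonium markers 1 higher and 5 lower. Of 5 peritubular myoid and of 5 endothelial cell markers, 1 each was called lower. Between days 0 and 8, when Orc1 rose, 7 of 8 spermatogonium, 4 of 8 spermatocyte and 2 of 5 peritubular myoid markers were called higher, and 4 of 5 Leydig cell and 1 of 5 endothelial cell markers lower. Of 8 Sertoli cell markers 2 were called higher and 1 lower, and of 2 tested erythroid markers 1 lower. On day 35 against day 0, 3 of 5 Leydig cell, 4 of 5 peritubular myoid cell and 5 of 5 endothelial cell markers were called lower, and 1 of 5 macrophage markers higher. Of 8 Sertoli cell markers 3 were called higher and 4 lower there, and of 8 spermatogonium markers 2 higher and 5 lower. All 8 spermatocyte and all 8 spermatid markers were called higher. Of 2 tested erythroid markers 1 was called lower, and of 3 tested epididymis markers 2 were called higher and 1 lower. The part of these changes in the licensing results was not tested.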

How the data were processed

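Gene expression in mouse testis was measured on 20 arrays, in pairs over 10 days. The labels' protocols name Trizol for the extraction and a one-cycle 3′ kit with biotin for labelling. The deposited values are linear intensities, 1 for each probe set on each array, made by the authors with software not given in the sources used here. Its arrays share a 2% trimmed mean of 125, and no further scaling was applied. A scale set to a common trimmed mean makes each value relative to the other RNAs on its array.

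Of 45101 probe sets, 64 controls were left out of the tests. Platform annotation gave 1 symbol to 34945, several to 932 and none to 9160, and 34741 matched a RefSeq gene (GRCm38.p6) by Entrez identifier. That table named genes, and promoter sequences are RefSeq's. No genome build is named for the probe sets.

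Values were tested as log2(intensity + 7.84), the pooled 20th percentile, in limma 3.58.1 (R 4.3.3; lmFit, eBayes with trend) with day as a factor on all 20 arrays (10 residual and 9.372 prior degrees of freedom). All tests were two-sided, with Benjamini-Hochberg adjustment over the 37293 probe sets that 2 or more arrays put above their own 40th percentile. Calls needed an adjusted p under 0.05 and a difference of at least 2-fold. limma's moderated F gave the test over all days. Beside it stood 5 main comparisons and 9 steps from one sampled day to the next. Loaders and inhibitor were also tested after subtracting the mean log2 value of Mcm2 to Mcm7 from each array. Members and lists were chosen with earlier results of these data known.

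All member genes are named, with the 3 genes of widest range in each pathway list and the 8 most alike genes, symbols of clones and predicted genes left out. Tested member probe sets that are not described singly enter the counts. Marker genes named singly, Birc5, Ccnb2, Plk1, Top2a, Bub1, Kif11, Tpx2 and Nusap1 were chosen after their values were seen. Mcmdc2, Chaf1a and Ccnb1 of the lists were not analysed here. The fit was tested on simulated data with known differences between days 20 and 14 in 33797 probe sets: of 50 each at log2 differences of 1, 1.5, 2 and 3, 38%, 90%, 100% and 100% were called, as were 4 unchanged probe sets. The number of arrays limits the precision. Alternatives were other scalings, pseudocounts, a floor, other filters, 1 probe set per gene, no trend, array weights, other thresholds, the replicate number as a block, only the days compared, another helicase reference and leaving out each array. Figures were drawn with matplotlib 3.10.9 (Python 3.11.15, pandas 2.3.3, numpy 2.4.6).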

Additional observations from a re-analysis of the deposited data

How the results depend on the processing

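The results were recomputed under 34 alternatives. Of the 60 results for representative probe sets (10 genes over the time course and 5 comparisons), 23 were called, and the call or sign of 25 changed under at least 1 alternative. The adjusted p alone, without the 2-fold requirement, added 20 calls. It moved the members called lower to 8 on day 14 against day 8 and to 15 on day 35 against day 20, and those called higher to 2 on day 20 against day 14 and to 1 on day 35 against day 0. Signs turned for 3 uncalled genes on day 8 against day 0: Mcm7 at 0.01 under quantile normalization, and, without 1 array at a time, Mcm4 (-0.03 to 0.11) and Mcm6 (-0.08 to 0.12). With 1 probe set per gene the counts were 9 over the time course, 0 higher and 6 lower on day 20 against day 14, 1 lower on day 35 against day 20 and 6 lower on day 35 against day 0, since only 10 probe sets were then counted. Under quantile normalization, a common median and a floor at the pooled median, 1 was called lower on day 14 against day 8. The 1 called higher on day 20 against day 14 became 0 under these 3, with a pseudocount at the 40th percentile, with a filter at the 60th percentile, at an adjusted p under 0.01 and with only the days compared. Quantile normalization left 2 called lower on day 35 against day 20, and the pseudocount at the 40th percentile 0 called higher on day 8 against day 0. Leaving out each array gave 0 to 1 lower on day 14 against day 8, 0 to 1 higher on day 20 against day 14 and 0 to 1 higher on day 35 against day 0.

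Relative to the helicase mean, Orc1 passed on day 20 against day 14 (-0.46) with the mean over all helicase probe sets and on day 35 against day 20 (0.46) with the higher pseudocount, and ranged from 0.20 to 0.67 there without 1 array. Cdc6 was 0.09 on day 20 against day 14 both under quantile normalization and with the higher pseudocount, -0.18 to 0.14 without 1 array, -0.24 to 0.08 on day 14 against day 8 and 0.94 to 1.17 on day 35 against day 20 without 1 array. With the other reference it no longer passed on day 35 against day 20 (0.82) or day 0 (0.55). Gmnn was -0.01 on day 14 against day 8 with that reference, and on day 35 against day 20 it passed with it (-0.44) and under quantile normalization (-0.30). Where no cause is named, the cause was not tested.

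Replicate numbers were checked as pairs. Replicate 1 deviations correlated between days at -0.0268 to 0.0907 (45 pairs of days, 0 over 0.1). Over all tested probe sets, arrays of the same number thus showed little common deviation. An effect shared by few probe sets was not tested. With the replicate block the counts were 20 over the time course, 13 lower on day 20 against day 14 and 14 lower on day 35 against day 0, as without it. In simulation 38% of differences of exactly 2-fold were called for day 20 against day 14. A call needs an estimate of at least 2-fold, so a true difference of that size is easily missed by the rule itself. The changed probe sets were drawn from the brighter ones, so the simulation does not cover low probe sets. All others were simulated without change between days. In the data 20.6% of all probe sets were higher and 26.0% lower by the adjusted p for day 20 against day 14. The adjustment was therefore stricter in the simulation, and the shares it called are not those of the data. Readings near the array's 20th percentile carry the step after day 14.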
